A study of Mus musculus with 19 samples.

Results

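Mbp, Mog, Mag, Mobp, Cnp, Cldn11, Opalin, Mal and Ugt8a encode proteins of the myelin sheath and of the oligodendrocyte, the glial cell that makes it. They were taken from the deposited table of gene counts by matching its Ensembl identifiers, without their version, to these symbols, and all 9 of the 9 were found among 51789 rows. RNA had been sequenced as 19 ribosomal-RNA-depleted libraries of dorsal hippocampus from male C57BL/6J mice aged 2 to 4 months. In experiment 1, 5 tTA+/DN+ and 6 tTA+/DN- libraries all followed SOR. In experiment 2, 4 control libraries followed SOR (1 tTA-, 3 tTA+) and 4 were homecage controls (2 tTA-, 2 tTA+), none with DN. SOR and DN are given in the labels as abbreviations only. In the published study SOR is spatial object recognition, a learning task, and DN is a dominant-negative NR4A transcription factor that the transactivator tTA switches on in excitatory forebrain neurons. The labels name neither the promoter of tTA nor a cell type, so nothing in them places either transgene in oligodendrocytes. Each group is therefore a comparison of whole hippocampal tissue, in which fewer oligodendrocytes and less RNA per oligodendrocyte cannot be told apart.

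Oligodendrocytes arise from precursor cells that keep dividing in the adult brain, and a mature cell wraps its membrane around many stretches of axon. The wraps are pressed together on their inner face by MBP and held at their outer edge by tight junctions, and their lipids are rich in galactosylceramide. The transcription factors SOX10 and MYRF are known to drive the myelin genes in the mature cell, and in the hippocampus myelinated axons lie mainly in the alveus, the fimbria and the layers where projections run.

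The labelled tissue carried the markers of the cell type. The precursor marker Pdgfra was at 83.3 to 101 CPM (the count scaled to a common library size by the trimmed mean of M values, TMM) over the 19 libraries. The lineage factor Olig2 was at 11.9 to 20.2 CPM. Of 6 genes of peripheral myelin, Pmp2 and Foxd3 had no count in any library. Library totals ran from 22258159 to 66991576 counts, and the 9 genes together took 0.418% to 0.570% of them. The smallest library was experiment 2 SOR replicate 3. Choroid plexus markers (8 genes) summed to over 500 CPM in 5 libraries, which were experiment 1 control replicates 1 and 2, experiment 1 DN replicate 2, and experiment 2 SOR replicates 1 and 2. The labels do not say that replicates came from separate animals, so p-values measure the spread between these libraries.

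The promoters of 5 genes are printed because the results below turn on their genes: Mobp with Mal and Mog with Cnp varied together across libraries, and Ugt8a followed the rest least over all libraries. The sequences come from RefSeq (GRCm38.p6, coordinates 1-based) and run 5′ to 3′ in the direction of the gene. They cover up to 250 bases before the RefSeq start, and for Mobp and Cnp end 35 bases before it, where GENCODE places the first exon. The windows are chr9:120149492-120149706 (plus strand), chr2:127656696-127656945 (minus), chr17:37023399-37023648 (minus), chr11:100574689-100574903 (plus) and chr3:125938653-125938902 (minus). Capitals mark ACAAAG, a core bound by SOX factors, and CTGGCAC or CTGGTAC, the MYRF site, each searched on both strands.
Mobp: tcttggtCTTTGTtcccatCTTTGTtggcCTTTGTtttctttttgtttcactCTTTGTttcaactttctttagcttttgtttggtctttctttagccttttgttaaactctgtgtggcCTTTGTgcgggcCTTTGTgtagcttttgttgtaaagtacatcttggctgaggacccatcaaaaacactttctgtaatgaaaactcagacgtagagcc
Mal: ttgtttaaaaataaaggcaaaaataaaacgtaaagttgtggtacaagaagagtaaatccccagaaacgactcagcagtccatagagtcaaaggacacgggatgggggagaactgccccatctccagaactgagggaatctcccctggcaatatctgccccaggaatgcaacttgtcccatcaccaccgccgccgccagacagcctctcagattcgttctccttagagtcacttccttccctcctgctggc
Mog: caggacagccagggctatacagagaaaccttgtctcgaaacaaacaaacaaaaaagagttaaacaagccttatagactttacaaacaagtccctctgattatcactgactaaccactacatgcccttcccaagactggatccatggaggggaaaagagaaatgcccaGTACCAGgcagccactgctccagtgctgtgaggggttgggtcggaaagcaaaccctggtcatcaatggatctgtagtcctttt
Cnp: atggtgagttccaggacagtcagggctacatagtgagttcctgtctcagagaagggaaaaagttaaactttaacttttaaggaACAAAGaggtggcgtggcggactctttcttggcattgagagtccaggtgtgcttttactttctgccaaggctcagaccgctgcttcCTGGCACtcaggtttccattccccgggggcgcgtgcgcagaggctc
Ugt8a: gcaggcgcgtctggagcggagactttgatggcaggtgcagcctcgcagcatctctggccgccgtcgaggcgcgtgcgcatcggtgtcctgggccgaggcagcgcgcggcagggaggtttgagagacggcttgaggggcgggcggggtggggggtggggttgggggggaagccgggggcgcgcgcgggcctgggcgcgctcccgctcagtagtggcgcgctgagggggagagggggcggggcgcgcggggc

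RefSeq promoters were found for 8 of the 9 genes, the sequence of Mbp not being used here, and Mag had 3 alternative starts. In the 250 bases before the start, ACAAAG or its complement was present for Mobp, Cnp, Mag and Opalin, 4 of the 8. The same letters occurred in 16.5% of 32851 windows of this length before RefSeq starts. The MYRF letters were present for Mog, Cnp and Mag, 3 of the 8, against 5.93% of the windows. Mag was counted if any of its 3 windows held the letters, while these shares are per single window. Its window before the start at chr7:30914321 held neither motif. Mobp held the SOX core 6 times, no match overlapped another, and Mal, Ugt8a and Cldn11 held none of these letters. The E-boxes CAGCTG (13.0% of windows) and CATATG (3.46%), letters read by OLIG2 and related factors, were in none of the 8. Base composition set the windows of Mobp (40.8% G and C) and Ugt8a (76.8%) far apart. These matches are a description of the letters, not of binding.

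The genes lie apart in the genome (GRCm38, GENCODE M21), and their counts cover their exons. The genes of compact myelin and its channels are Mbp at chr18:82475146-82585637 (plus strand), Mobp at chr9:120149707-120181484 (plus strand), Mal at chr2:127633226-127656695 (minus strand) and Cnp at chr11:100574904-100591729 (plus strand). Those of the junction and the surface are Cldn11 at chr3:31149920-31164324 (plus strand), Mag at chr7:30899176-30914873 (minus strand) and Mog at chr17:37010743-37023398 (minus strand), and the other two are Ugt8a at chr3:125865271-125938619 (minus strand) and Opalin at chr19:41061710-41077113 (minus strand).

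Per kilobase of annotated exon, Mbp was the most abundant of the 9 genes in each library and Opalin the least. Averaged over the 19 libraries, the level per kilobase was 252 CPM for Mbp, the main cytoplasmic protein of compact myelin, and 179 CPM for Mobp, a smaller protein of the same layer. It was 159 CPM for Mal, a proteolipid that sorts membrane to the sheath, 131 CPM for Cnp, an enzyme of the uncompacted cytoplasmic channels, and 92.4 CPM for Cldn11, the tight junction protein of myelin. The 2 surface proteins that face the axon and the outside, Mag and Mog, were at 55.9 and 42.6 CPM per kilobase. Ugt8a, the enzyme that makes galactosylceramide, followed at 28.1 CPM, and Opalin, a glycoprotein of the mature oligodendrocyte membrane, at 10.8 CPM per kilobase. This order held in 19 of 19 libraries at 7 of its 8 steps. The exception was Mal above Cnp, which held in 18. Mobp exceeded Mal in each library but by a ratio as small as 1.0045, so these neighbours were not separated by their spread. Reads in 154 bases of Cnp exon shared with Dnajc7 on the other strand, and in 79 bases of Mobp exon shared with Gm38642, cannot be assigned with certainty.

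**Figure D1:**
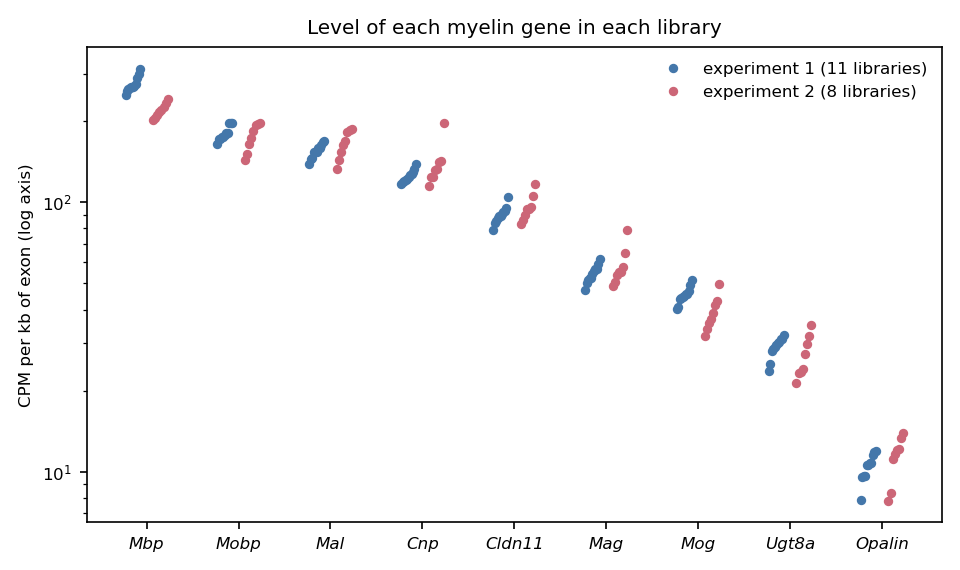
Level of each gene in each library as CPM per kilobase of exon (log axis), genes ordered by their mean over 19 libraries. Each point is 1 library, blue for experiment 1 and red for experiment 2. Mbp is highest and Opalin lowest in each library. The Mbp points of the 2 experiments do not overlap, a separation that was not counted over all genes.

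The 2 experiments were separate by their labels and are not tested against each other. On the scale of CPM of the raw library total, Mbp ran from 2162 to 2664 in the 11 libraries of experiment 1 and from 1739 to 2030 in the 8 of experiment 2. No library of experiment 2 reached the lowest of experiment 1 for this gene. The other 8 genes overlapped between the experiments. Mog, for example, ran from 67.8 to 88.3 and from 55.9 to 80.3 CPM. How many of all genes separated the experiments in this way was not counted, so nothing particular to Mbp is read from it. The summed neuron markers separated too, at 5975 to 6586 and 5052 to 5843 CPM (TMM-scaled), while the sums of the other lists overlapped.

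None of the 9 genes passed an adjusted p of 0.05 in any of the 3 comparisons (edgeR quasi-likelihood test, Benjamini-Hochberg adjustment over all genes tested). DESeq2 called none of them either. Of their 27 unadjusted 95% intervals 7 left out 0, and the differences are given below with the libraries behind them.

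With DN, the 9 genes differed little from controls. The estimates were negative for 7 of the 9, some of them close to 0, and the median log2 fold change was -0.03, beside 6.16e-05 over the 22391 genes tested. This median was -0.07 without DN replicate 2 and -0.01 without DN replicate 3, control replicate 1 or control replicate 3. They ran from -0.15 for Ugt8a to 0.11 for Opalin, and the 95% intervals together ran from -17.3% to 23.4% on the linear scale. No interval reached a log2 change of 0.5 in either direction. At an adjusted p under 0.05, 0.00893% of all genes were called. At an unadjusted p under 0.05, 3 of the 9 passed, each lower with DN, where 3.83% of all genes did.

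Those 3 were Ugt8a, Mbp and Cldn11. Ugt8a was at 130, 113, 141, 107 and 128 CPM in the 5 DN libraries, and the 6 controls had a lowest, median and highest level of 131, 137 and 146 CPM. DN replicates 1, 2, 4 and 5 lay under each control and replicate 3 lay among them, so the groups overlapped. The log2 fold change was -0.15 ± 0.06 (SE, n = 5 and 6), with an edgeR adjusted p of 0.999 and an exact two-sided permutation p of 0.0303, where the smallest possible was 0.00216. Mbp was at 2192, 2276, 2265, 2129 and 2292 CPM with DN against 2234, 2399 and 2659 CPM (lowest, median, highest) in controls. Control replicates 3, 4, 5 and 6 were above each DN library, and control replicates 1 and 2 lay among them. Its log2 fold change was -0.11 ± 0.04 (SE, n = 5 and 6; edgeR adjusted p 0.999; exact permutation p = 0.0584). Cldn11 was at 157, 174, 159, 148 and 169 CPM with DN against 164, 170 and 197 CPM in controls. The groups overlapped, with a log2 fold change of -0.11 ± 0.05 (SE, n = 5 and 6; adjusted p 0.999 in edgeR; exact permutation p = 0.0952). Without control replicate 3 it was -0.07.

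The other 6 genes did not separate the DN groups. Mog, the outermost surface protein, averaged 76.7 ± 5.61 CPM (SD, n = 5) with DN and 77.4 ± 6.15 CPM (SD, n = 6) without. Cnp averaged 455 ± 14.9 and 457 ± 29.9 CPM in the same groups, and Mobp 1224 ± 81.2 and 1253 ± 78.9 CPM. Each of these differences was smaller than 1 SD of either group. Mal averaged 425 ± 32.1 and 438 ± 21.9 CPM, with a log2 fold change of -0.04 and a 95% interval from -0.14 to 0.06. Mag and Opalin were the 2 genes with positive estimates, 0.06 and 0.11. Both estimates lost their sign without the 3 libraries rich in choroid plexus markers, at -0.0032 for Mag and -0.01 for Opalin. Without these libraries Mbp had -0.17, Cldn11 -0.17 and the median of the 9 genes was -0.07, while Ugt8a had -0.14. Within the controls, replicate 3 had the highest and replicate 2 the lowest mean over the 9 genes, 0.16 above and 0.10 below the experiment's average on the log2 scale. Opalin spread most, from 23.1 CPM in replicate 2 to 35.1 CPM in replicate 3.

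**Figure D2:**
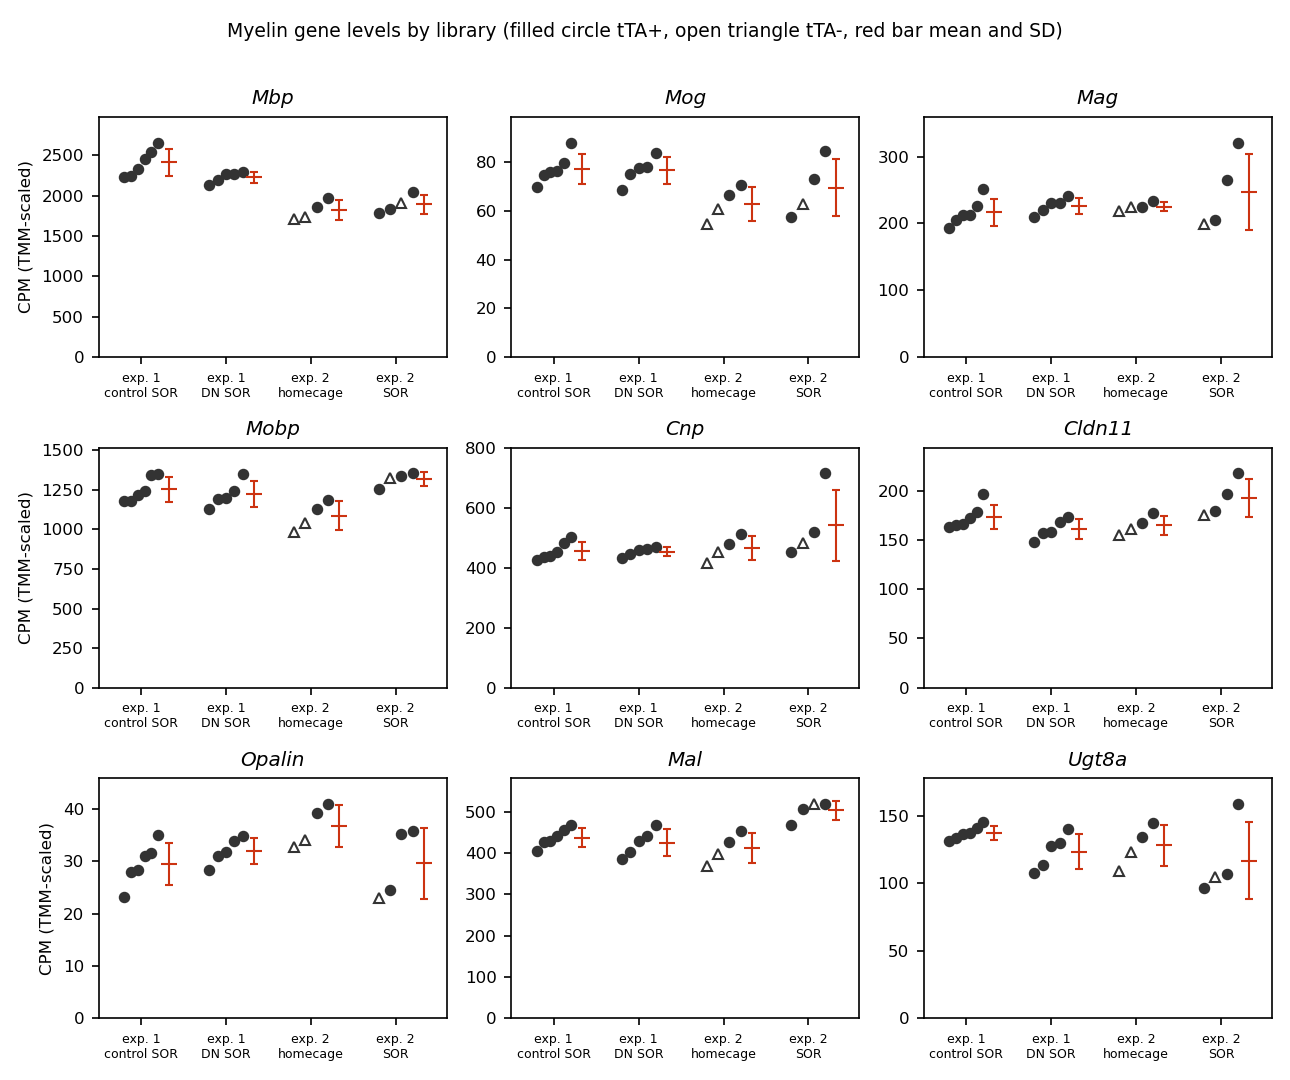
TMM-scaled CPM of each gene (vertical axis, from 0) in the 4 groups (horizontal axis). Points are libraries, sorted within a group, filled circles tTA+ and open triangles tTA-, and red bars give mean and SD. Mobp and Mal are higher in each experiment 2 SOR library than in each homecage library, and in the homecage group the triangles lie lowest in each of the 9 panels.

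After SOR, 7 of the 9 genes had higher means than in homecage mice, and Opalin and Ugt8a had lower ones. The median log2 fold change was 0.14, beside 0.01 over the 22305 genes tested, and the range was -0.31 for Opalin to 0.29 for Mal. The median rested on single SOR libraries, being 0.06 without replicate 3, 0.23 without replicate 1 and 0.22 without replicate 2. Without both replicates 1 and 2, the libraries rich in choroid plexus markers, it was 0.31. The SOR libraries then left were all tTA+, beside homecage libraries of both genotypes. Of all genes, 0.0897% were called at an adjusted p under 0.05 and 7.6% passed an unadjusted 0.05, which 3 of the 9 also passed, all higher after SOR. For 2 of the 9 each SOR library lay above each homecage library, a separation that 3.06% of all genes showed in this direction.

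The 2 separated genes were Mobp and Mal. Mobp was at 1329, 1256, 1355 and 1336 CPM in the 4 SOR libraries and at 985, 1039, 1189 and 1129 CPM in the 4 homecage libraries. The lowest SOR library was thus above the highest homecage library. Its log2 fold change was 0.28 ± 0.08 (SE, n = 4 and 4), the edgeR adjusted p was 0.541, and the exact two-sided permutation p was 0.0286, the smallest that 4 against 4 can give. The SOR libraries had Mal at 518, 507, 469 and 519 CPM, and the homecage libraries at 368, 398, 454 and 427 CPM. Again the groups did not overlap, the nearest pair being SOR replicate 3 and homecage replicate 3. Its log2 fold change was 0.29 ± 0.09 (SE, n = 4 and 4; edgeR adjusted p 0.550; exact permutation p = 0.0286). Among tTA+ mice alone (3 against 2 libraries) the estimates were 0.18 for both Mobp and Mal (edgeR adjusted p 0.998), and the lowest adjusted p of any of the 9 genes with SOR over the alternatives run was 0.0740 (Mal, with all 19 libraries in 1 fit).

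Cldn11 and Cnp were also higher on average after SOR but rested more on 1 library. The SOR libraries had Cldn11 at 176, 180, 218 and 197 CPM, and the homecage libraries at 161, 155, 177 and 167 CPM, so that 1 library of each group crossed. The log2 fold change was 0.22 ± 0.09 (SE, n = 4 and 4; edgeR adjusted p 0.625; exact permutation p = 0.0571). For Cnp the SOR libraries were at 484, 452, 716 and 521 CPM against 454, 418, 513 and 479 CPM. SOR replicate 3 stood far above the others and the remaining libraries mingled. That library was the smallest of the 19, with 27815 genes detected against 30165 to 32495 in the others, and had the lowest sum of neuron markers, 5052 CPM. The log2 fold change of Cnp was 0.22 with all libraries and 0.06 without that library. Mag behaved alike in this library, at 321 CPM against 199, 206 and 264 CPM in the other SOR libraries and 219 to 234 CPM in homecage mice. Its log2 fold change went from 0.14 to -0.01 without it. Mog averaged 69.6 ± 11.9 CPM after SOR and 63.1 ± 7.002 CPM in homecage mice (SD, n = 4 each), and Mbp 1896 ± 116 and 1822 ± 122 CPM, so that for both the groups overlapped.

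Opalin went the other way from Mobp and Mal. Its SOR libraries, in replicate order, had 22.9, 24.6, 35.3 and 35.8 CPM, against homecage values of 32.7, 34.2, 41.0 and 39.3 CPM. SOR replicates 1 and 2 were below each homecage library, and replicates 3 and 4 lay among them. The log2 fold change was -0.31 ± 0.15 (SE, n = 4 and 4; edgeR adjusted p 0.662; exact permutation p = 0.171). SOR replicates 1 and 2 were also the libraries rich in choroid plexus markers, whose sum was 992 and 2187 CPM there. It was 23.3 and 56.6 CPM in the other two SOR libraries and 44.3 to 172 CPM in homecage mice. Without these 2 libraries the log2 fold change of Opalin was -0.05, and that of Mobp was 0.31 and of Mal 0.26. The SOR libraries then left were both tTA+, beside 2 tTA- and 2 tTA+ homecage libraries, so exposure was partly tied to tTA. They had Opalin at 35.3 and 35.8 CPM, below both tTA+ homecage libraries, at 41.0 and 39.3 CPM. The part of choroid plexus tissue in the Opalin values was not tested. For Ugt8a the SOR libraries had 105, 107, 96.5 and 159 CPM, against homecage values of 109, 124, 145 and 135 CPM. Here SOR replicate 4 alone was above the homecage libraries and the other 3 were below them, and the log2 fold change was -0.13 ± 0.15 (SE, n = 4 and 4; edgeR adjusted p 0.787; exact permutation p = 0.429). With 1 library left out it ran from -0.32 to -0.05.

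The tTA genotype was compared within experiment 2, where 5 libraries were tTA+ and 3 tTA-, with exposure in the model. All 9 estimates were positive, from 0.08 for Mbp to 0.35 for Opalin, and their median was 0.20, beside 0.01 over the 22904 genes tested, of which 53.2% were positive. With 1 library left out their median ran from 0.12, with SOR replicate 3 left out, to 0.25, with SOR replicate 2 left out. An adjusted p under 0.05 was reached by 0.358% of all genes. An unadjusted p under 0.05 was reached by 1 of the 9 and by 5.71% of all genes. No gene of the 9 had each tTA+ library above each tTA- library, a separation seen for 2.4% of all genes. The 95% intervals reached at least a log2 change of 0.5 upwards for 5 genes, so a difference of that size lay within the error at this number of libraries.

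The gene past the unadjusted threshold was Opalin. It was at 24.6, 35.3, 35.8, 41.0 and 39.3 CPM in tTA+ libraries (the first 3 after SOR) and at 22.9, 32.7 and 34.2 CPM in tTA- libraries (the first after SOR). In each exposure the tTA- libraries were lowest. With exposure in the model the log2 fold change was 0.35 ± 0.14 (SE, n = 5 and 3; edgeR adjusted p 0.714), and without exposure the groups overlapped, with an exact permutation p = 0.339, where the smallest possible was 0.0179. Ugt8a (0.24), Mog (0.23), Cnp (0.20) and Mag (0.20) followed on the log2 scale, each with an edgeR adjusted p of 0.9999. Apart from Mog, which kept 0.17 or more with any 1 library left out, these moved with single libraries. Without SOR replicate 1, the only tTA- library after SOR, Mag had 0.05, without SOR replicate 3 Mag had 0.13 and Cnp 0.11, and without SOR replicate 4 Ugt8a had 0.14. Cldn11 (0.15), Mobp (0.11), Mal (0.09) and Mbp (0.08) were smallest, and their intervals all included 0. Without the single tTA- library after SOR, Mobp, Mal and Mbp had 0.20, 0.20 and 0.16, and without homecage replicate 3 they had 0.07, 0.05 and 0.04.

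In homecage mice taken alone, with 2 libraries of each genotype, both tTA+ libraries were above both tTA- libraries for 9 of the 9 genes. The same separation upwards held for 25.9% of the 22617 genes tested in these 4 libraries, and 4.17% of them were called at an adjusted p under 0.05. Mobp was at 1189 and 1129 CPM in tTA+ and 985 and 1039 CPM in tTA- homecage mice. Ugt8a was at 145 and 135 CPM against 109 and 124 CPM, and Mog at 70.6 and 66.4 CPM against 60.7 and 54.5 CPM. Mag was nearest to overlap, at 234 and 224.4 CPM against 223.9 and 218.6 CPM. In this subset the median log2 fold change of the 9 genes was 0.20, beside 0.0017 over all genes, and the edgeR adjusted p ran from 0.0805 for Opalin to 0.692 for Mag. Most pairs of the 9 genes are positively correlated across libraries, so they are not 9 independent observations. Other marker sums separated the same 4 libraries in this direction. Microglia markers summed to 417 and 424 CPM in tTA+ against 380 and 362 CPM in tTA- homecage mice, thalamus markers to 357 and 295 CPM against 246 and 276 CPM, and blood markers to 85.5 and 101 CPM against 64.5 and 62.3 CPM. Their part in the values of the myelin genes was not tested. After SOR only 1 tTA- library existed, and for Mobp, at 1329 CPM against 1256, 1355 and 1336 CPM in tTA+ mice, and for Mal, at 518 CPM against 507, 469 and 519 CPM, it lay among the tTA+ libraries.

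**Figure D3:**
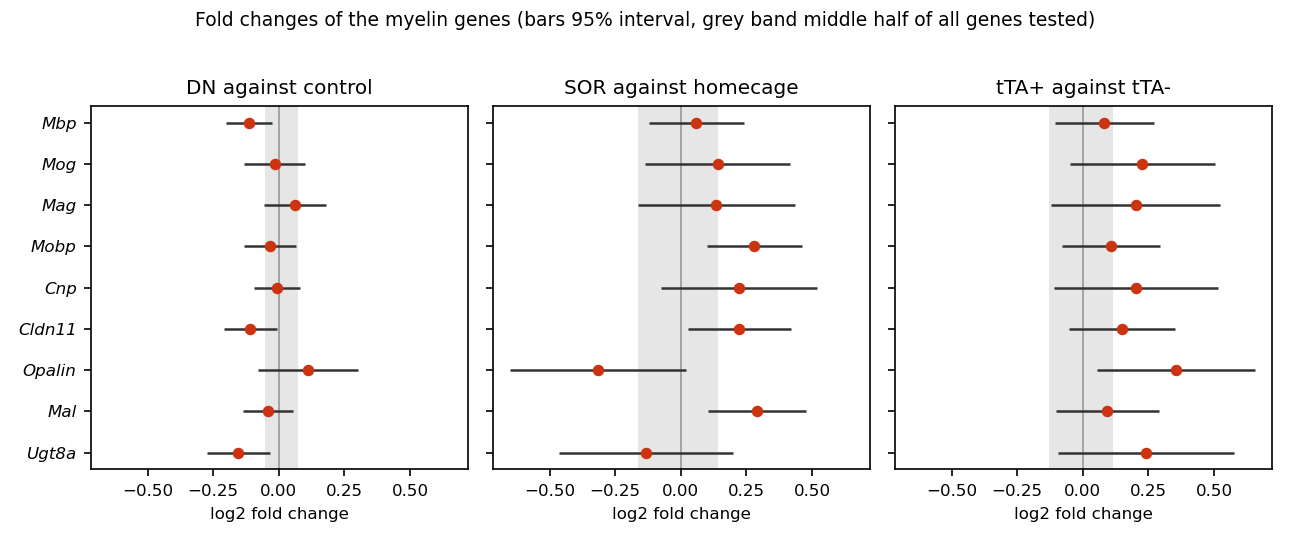
Log2 fold change of each gene (horizontal axis) in the 3 comparisons, from edgeR, with 95% intervals as bars. The grey band holds the middle 50% of all genes tested. With DN the points lie close to 0, after SOR Opalin lies opposite to Mobp and Mal, and with tTA all 9 points are to the right of 0.

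The wider oligodendrocyte lineage and the axon-glia junction were described with 6 further lists of 68 genes, all of which were tested. The lists are not specific to the lineage. The axon-glia junction genes are mostly neuronal, and Trf, Car2, Cryab, Qdpr, Cd9, Ndrg1, Fyn and Tcf7l2 are also made by other brain cells. None of the 68 genes was called in any comparison (edgeR, adjusted p under 0.05), nor by DESeq2. At an unadjusted p under 0.05 there were 4 with DN, 8 with SOR and 3 with tTA of the 68, where 3.83%, 7.6% and 5.71% of all genes passed. The tTA estimates were positive for 58 of the 68, beside 53.2% of all genes, and their median was 0.11 on the log2 scale, beside 0.01 over all genes. They were positive for 25 of 26 other myelin and mature oligodendrocyte genes (median 0.13), 9 of 11 precursor genes (0.16), 7 of 10 lineage transcription factors (0.05), 6 of 8 myelin lipid enzymes (0.08), 4 of 6 genes of newly formed oligodendrocytes (0.07) and 7 of 7 genes of the axon-glia junction (0.06). Within these lists the smallest p in the tTA comparison belonged to Cd9, a membrane tetraspanin (log2 fold change 0.31, edgeR adjusted p 0.592), Pdgfra, the growth factor receptor of precursors (0.19, 0.817), Olig2 (0.19, 0.9999), Enpp6, a marker of newly formed oligodendrocytes (0.34, 0.967), Cadm3 (0.11, 0.9999) and Galc, the lysosomal enzyme that degrades galactosylceramide (-0.19, 0.9999).

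With SOR the lineage lists showed no common direction. Estimates were positive for 30 of the 68, with a median of -0.02, and for 13 of 26 among the other myelin genes. The smallest p of all 6 lists belonged to Gpr17, a receptor of committed precursors (log2 fold change 0.40, edgeR adjusted p 0.413). The genes with the smallest p in the other 5 lists were Tmem88b (-0.29, 0.566), Tns3, an adhesion protein of newly formed oligodendrocytes (0.24, 0.604), Galc (-0.26, 0.657), Cadm4 (0.28, 0.675) and Myrf (-0.18, 0.702). With DN, 46 of the 68 estimates were negative, with a median of -0.02.

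Markers of other cells were read beside these values. Of 59 genes in 8 lists, 56 were tested, and none was called by edgeR in any comparison. DESeq2 called 1, the endothelial receptor gene Kdr, lower after SOR (edgeR log2 fold change -0.55, adjusted p 0.157). At an unadjusted p under 0.05 there were 2 with DN, 14 with SOR and 5 with tTA, where 3.83%, 7.6% and 5.71% of all genes passed. With SOR those 14 included 4 choroid plexus, 4 endothelial and 3 microglia markers. The estimates with SOR were positive for 8 of 8 choroid plexus markers (median log2 fold change 2.16) and for 0 of 8 thalamus markers (median -0.02). Endothelial markers summed to 195 to 212 CPM in the SOR group and 211 to 227 CPM in the homecage group. With DN the estimates were positive for 0 of 8 choroid plexus markers (median -0.88) and for 5 of 5 blood markers (median 0.20). Blood markers summed to 40.5 to 110 CPM with DN against 36.9 to 74.3 CPM in controls. The 110 CPM was DN replicate 4, and the other DN libraries reached at most 58.9 CPM. The median sum was 42.3 CPM with DN and 49.2 CPM in controls. With tTA, the summed level of 8 microglia markers was 396 to 435 CPM in tTA+ and 362 to 413 CPM in tTA- libraries, and 8 of 8 estimates were positive (median 0.12). That of 8 thalamus markers was 249 to 357 CPM and 246 to 276 CPM, with 6 of 8 positive (median 0.17). Neuron markers summed to 5052 to 5843 CPM and 5520 to 5756 CPM with 4 of 8 positive, astrocyte markers to 4977 to 5752 CPM and 5148 to 5591 CPM with 6 of 8 positive, endothelial markers to 195 to 225 CPM and 212 to 227 CPM with 4 of 8, and blood markers to 73.4 to 101 CPM and 62.3 to 106 CPM with 4 of 5. Choroid plexus markers ran from 23.3 to 2187 CPM and from 66.9 to 992 CPM, with 2 of 8 positive, and 3 of 6 peripheral myelin genes were tested, 2 of them positive. The part of these cells in the differences of the myelin genes was not tested.

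Genes with the smallest p in those lists did not pass the threshold either. For tTA they were Zic1 (log2 fold change 1.38), Stmn2 (0.28), Ncmap (0.71), C1qa (0.20), Aqp4 (0.18), Pecam1 (-0.18), Kl (-0.77) and Hbb-bs (0.30), with edgeR adjusted p from 0.712 to 0.9999. For SOR they were Kdr, Aqp1 (3.48), Tmem119 (0.32), Aldh1l1 (0.41), Hbb-bt (0.53), Syt1 (-0.11), Prx (-0.19) and Plekhg1 (-0.11).

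Across libraries most pairs of the 9 genes were positively correlated, some closely and some weakly. Of 36 pairs computed in each experiment, 2 passed an adjusted p of 0.05 in both. Mobp and Mal, both of compact myelin, had the highest r of experiment 1. Over its 11 libraries r was 0.92 (permutation p = 8.0e-05) and rho 0.93 (permutation p = 0.00011), with r at 0.91 without the 2 libraries farthest from the median of Mobp. Over the 8 libraries of experiment 2 r was 0.94 (exact permutation p = 0.00117) and rho 0.86 (exact permutation p = 0.0107), with r at 0.77 without the 2 farthest. Adjusted over the 36 pairs (Benjamini-Hochberg), p for r was 0.00288 and 0.0199. With group means removed r was 0.92 and 0.67.

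Mog and Cnp formed the other pair. In experiment 1 r was 0.86 (permutation p = 0.00064; adjusted 0.0112) and rho 0.80 (permutation p = 0.00503). In experiment 2 r was 0.94 (exact permutation p = 9.9e-05; adjusted 0.00357) and rho 0.98 (exact permutation p = 0.000397). Without the 2 farthest libraries r was 0.76 and 0.96, and with group means removed 0.86 and 0.93. In each experiment 30 of the 36 pairs had a positive r, 27 of them in both, and the median r was 0.45 and 0.46. An adjusted p under 0.05 was reached by 4 pairs in experiment 1 and 6 in experiment 2. The same counts were not made for pairs of other genes. Libraries share depth and scaling, so these counts are not a result particular to the myelin genes. Some of the high values of experiment 2 rested on few libraries. Mag with Cnp had r at 0.88 (exact permutation p = 0.0113; adjusted 0.0579), which was 0.23 without the 2 libraries farthest from the median of Mag.

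Ugt8a followed the other genes least. Its r with the mean of the other 8 genes was -0.13 in experiment 1 and 0.15 in experiment 2, where Mog had 0.90 in both. In experiment 2 this rested on 1 library: with the mean of all 9 genes, itself included, Ugt8a had r of 0.35 over the 8 libraries and 0.89 without SOR replicate 3. In experiment 1 the same r was 0.09. In single pairs its r ran from -0.45 with Opalin to 0.58 with Mbp in experiment 1, and from -0.24 with Cnp to 0.64 with Mbp in experiment 2. With Opalin the r of Ugt8a was 0.60 in experiment 2. In SOR replicate 3 Ugt8a was lowest of the 8 libraries, at 96.5 CPM, while Cnp, Mag, Mog, Mobp and Cldn11 were highest there. The spread of single genes differed too. With group terms removed, Opalin had the largest residual SD in experiment 1, 0.17 on the log2 scale, beside a median of 0.07 over 7950 genes at 20 CPM or more. In experiment 2 Ugt8a was largest, at 0.25, beside 0.15 over 8004 genes, and Mobp was smallest, at 0.08.

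**Figure D4:**
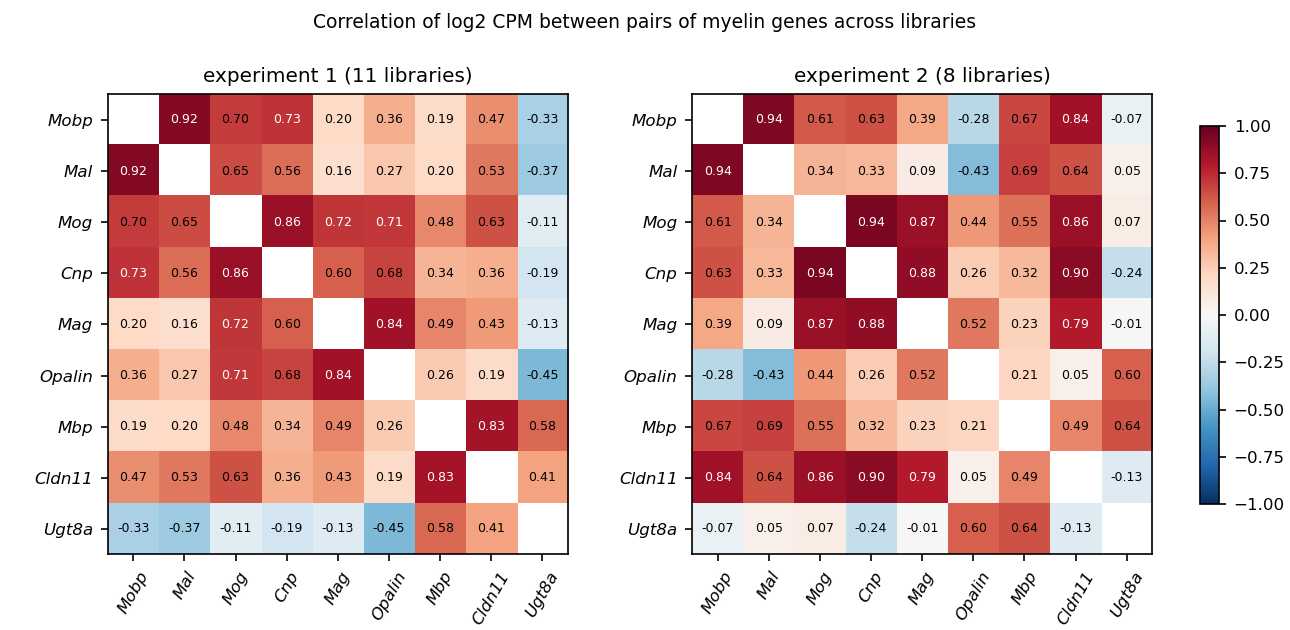
Pearson's r of log2 CPM for each pair of genes over the 11 libraries of experiment 1 (left) and the 8 of experiment 2 (right), red for positive and blue for negative. The cells of Mobp with Mal and of Mog with Cnp are dark red in both, at 0.92 and 0.94 and at 0.86 and 0.94. Ugt8a has negative or weak cells with most genes but positive ones with Mbp, at 0.58 and 0.64. With Opalin it has -0.45 in experiment 1 and 0.60 in experiment 2.

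Among 16315 other genes with a mean of at least 1 CPM in each experiment, 10 followed the mean of the 9 genes most closely, ranked by the smaller r of the 2 experiments and described without a test. Rasgef1c, a guanine nucleotide exchange factor, came first, with r of 0.78 over the 11 libraries of experiment 1 and 0.93 over the 8 of experiment 2. Sirt2, a deacetylase abundant in myelin, had r of 0.76 and 0.77. Bcas1, a marker of myelinating oligodendrocytes, had 0.74 and 0.70. Others among them were Mvb12a, Tmem125, Npepl1, Paxx, Aspscr1 and Gm45453, with a smaller r of 0.67 to 0.72. Some of these rested on SOR replicate 3 of experiment 2. Without it r in experiment 2 was 0.63 for Mvb12a, 0.52 for Tmem125, 0.50 for Paxx and 0.48 for Aspscr1. For the other genes named here it was then 0.72 or more. Bcas1 and Tmem125 were in the lists of lineage genes used here. The libraries share their depth and scaling, which these values include.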

How the data were processed

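The deposited values are whole-number counts per gene in 1 table of 51789 genes and 19 libraries, made by the authors. Trizol extraction and TruSeq libraries with Ribo-Zero Gold depletion are given per the labels. The submitters' processing notes name STAR, SAMtools 1.6, featureCounts 1.4.4 and the build mm10. The annotation, the use of strand and the handling of multiply mapped reads are not given in the sources used here, so counts of overlapping genes are uncertain. Symbols and exons came from GENCODE M21 (GRCm38), which held 51596 of the identifiers.

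Each experiment was fitted alone on all its genes with edgeR 4.0.16 (R 4.3.3): TMM scaling, filterByExpr and robust quasi-likelihood F tests, two-sided, called at a Benjamini-Hochberg adjusted p under 0.05. The fits were tested on simulated data with known changes. An SE was taken as |log2 fold change| over the root of F. CPM values use TMM-scaled library sizes, and log2 CPM for correlations a prior count of 2. Exact permutation tests compared mean log2 CPM. Correlations used 100000 permutations in experiment 1 and all 40320 orders in experiment 2. No molecular identifiers were used, so reads may repeat molecules. Replicate numbers did not pair the libraries.

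The 9 genes, the lists, the rule for naming genes and the tests were chosen with earlier results of these data known. The rule named all 9 genes, called genes of the lists or otherwise the gene with the smallest p per list with SOR and tTA, and the 10 genes closest to the mean of the 9. The lists held genes of other myelin and mature oligodendrocytes, myelin lipid enzymes, lineage transcription factors, precursors, newly formed oligodendrocytes, the axon-glia junction and peripheral myelin, and markers of neurons, astrocytes, microglia, endothelium, choroid plexus, blood and thalamus. The alternatives were size factors as in DESeq2, no filter on low counts, DESeq2 1.42.0, 1 fit of all 19 libraries, a replicate block, tTA as a covariate or exposure left out, tTA+ or homecage mice alone, each library left out, and, chosen after seeing the data, leaving out libraries over 500 CPM of choroid plexus markers. The Mbp promoter was not used here, and 1 of the 10 closest genes is not reported here.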

Additional observations from a re-analysis of the deposited data

Results flagged for a closer look

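Of 36 sets of values (9 genes in 4 groups), 1 had a library far from the others of its group. Ugt8a in experiment 2 SOR replicate 4 was at 159 CPM, where the other 3 SOR libraries were at 96.5 to 107 CPM. Chance alone sets such a mark in about 1 in 20 sets. Without this library the log2 fold change of Ugt8a after SOR was -0.32, against -0.13 with it, and neither passed the threshold.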

How the results depend on the processing

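None of the 9 genes was called in any comparison under any alternative run, nor at an adjusted p under 0.1 in the main test. Signs of single genes changed in 18 cases, 8 of them tTA estimates under the replicate block. With each library left out in turn, the log2 fold change with DN ran from -0.0500 to 0.0271 for Mog and from -0.0279 to 0.0239 for Cnp, and that with SOR ran from -0.0137 to 0.227 for Mag. The median of the 9 genes then ran from -0.0721 to -0.0102 with DN, from 0.0594 to 0.227 with SOR and from 0.116 to 0.248 with tTA. In tTA+ mice alone Mbp had -0.0239 with SOR. Without the libraries over 500 CPM of choroid plexus markers, an alternative chosen after seeing the data, Mag had -0.0032 and Opalin -0.0101 with DN, and the median of the 9 genes was -0.0730 with DN and 0.305 with SOR. In that SOR fit only tTA+ libraries were left after SOR, beside homecage libraries of both genotypes. Same-numbered libraries correlated at -0.05 to 0.39, not all above 0.1, so the numbers pair nothing. With the number as a replicate block, the tTA estimates were -0.0245 for Mbp, -0.0696 for Mog, -0.262 for Mag, -0.0132 for Mobp, -0.118 for Cnp, -0.0055 for Cldn11, -0.189 for Opalin and -0.0758 for Ugt8a, with a median of -0.0696. Only the libraries numbered 2 hold both genotypes under 1 number, so by construction that block leaves 1 pair to give the tTA estimate. It changed no call among the 9 genes.

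Counts of called genes over the whole table moved more. With SOR 20 genes were called in the main test, 36 without the filter, 113 by DESeq2, 100 with all 19 libraries, 11 with tTA as a covariate, 0 in tTA+ mice alone, 9 with the block, 1 without the libraries rich in choroid plexus markers and 1 to 50 with a library left out. With tTA 82 were called in the main test, 265 without the filter, 253 by DESeq2, 388 with all 19 libraries, 944 in homecage mice alone, 0 with the block, 15 without the libraries rich in choroid plexus markers and 10 to 290 with a library left out. The causes were not tested. The number of libraries limits the precision: with SOR the intervals of 2 genes, and with tTA those of 5, reached a log2 change of 0.5.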
